A study of Mus musculus with 6 samples.

Results

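The ROCK kinases and nonmuscle myosin II form a contractile pathway of the cell, and 10 of its genes were followed here in cultured muscle stem cells (MuSCs): Rock1, Rock2, Myh9, Myh10, Myh14, Myl9, Myl12a, Myl12b, Ppp1r12a and Mylk. They were selected by gene symbol, all 10 had a row among the 18943 genes of the deposited table, and all 10 passed the filter on low values. The cells were MuSCs purified by FACS from wild-type C57BL/6 mice aged 8 weeks and kept in culture for 5 days, with 2 libraries each for the solvent DMSO, for 100 nM endothelin-3 (ET-3) and for 100 nM neurotensin (NT). Each ligand is a peptide that activates G protein-coupled receptors, and the study examined both for an action on MuSC quiescence through the G proteins G12 and G13 and the GTPase RhoA. The doses are those of the sample labels, and the methods of the study name higher concentrations. The design text speaks of triplicates and the study of biological samples, while 2 libraries a group were labelled and used here. The labels do not say whether the libraries of a group came from separate animals or cultures, so the p-values measure only the spread between these libraries, which may be technical.

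As background, active RhoA binds and opens the kinases ROCK1 and ROCK2. Nonmuscle myosin II is a hexamer that pairs heavy chains (encoded by Myh9, Myh10 or Myh14) with essential light chains and with regulatory light chains (encoded by Myl9, Myl12a or Myl12b), and it pulls on actin filaments once the regulatory light chain is phosphorylated. Myosin light chain kinase, the product of Mylk, and ROCK both add this phosphate, while myosin phosphatase, which the Ppp1r12a product directs to myosin, removes it. ROCK also inhibits that phosphatase. These steps act on proteins, whereas RNA alone was measured here.

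The RNA of the 3 regulatory light chain genes, of Mylk, of Myh14, of Ppp1r12a and of Rock1 fell under both ligands, whereas the log2 fold changes of Rock2, Myh9 and Myh10 were between -0.14 and 0.14. Under ET-3, 7 of the 10 genes fell, 1 rose and 2 did not pass, where a gene passed if limma gave it a p, adjusted by Benjamini-Hochberg over 13921 genes, no higher than 0.05. Of all tested genes, 63.7% were called under ET-3, with 33.2% lower and 30.6% higher. Under NT, 8 of the 10 genes fell, 1 rose and 1 did not pass, beside 62.2% of all tested genes called, with 32.5% lower and 29.7% higher. Mylk, Myh14, Myl12b and Myl9 fell by at least 2-fold under each ligand, which makes 4 of the 10 genes, whereas 14.9% of all tested genes did so under ET-3 and 13.2% under NT. No member rose by 2-fold, beside 6.62% and 7.3% of all tested genes, and 21.5% and 20.5% of them passed this threshold in either direction. The median log2 fold change of the members was -0.52 under ET-3 and -0.58 under NT, and that of all tested genes was -0.01 in both. The ligand comparisons share the DMSO libraries and are not independent of each other. With every library scaled to its total instead, the median of all genes moved to 0.08 under ET-3 and 0.10 under NT, the lower share of the NT calls moved from 52.3% to 41.7%, and the members under NT split into 6 lower and 2 higher.

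The deposited values, called scaled read counts here, are counts of reads that carry 1 scaling factor for each library and were rounded afterwards. They summed to between 4214458 and 4600575 per library, from an estimated 3628799 to 5396233 reads on genes. The mean chi-square per gene between the libraries of a group, which is near 1 where sampling noise alone separates them, was 0.862 for ET-3, 0.924 for NT and 1.47 for DMSO. The libraries of each ligand thus differed by less than the sampling noise and may not be separate cultures. The fit kept every library as a sample, and it was repeated with each ligand's libraries averaged and counted as 1 sample. In that repeat 5 members were lower and 0 higher under ET-3, and 4 were lower and 0 higher under NT, while 18.3% and 15.8% of all tested genes were lower. In what follows, the values of a group are given in the order of replicates 1 and 2.

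**Figure D1:**
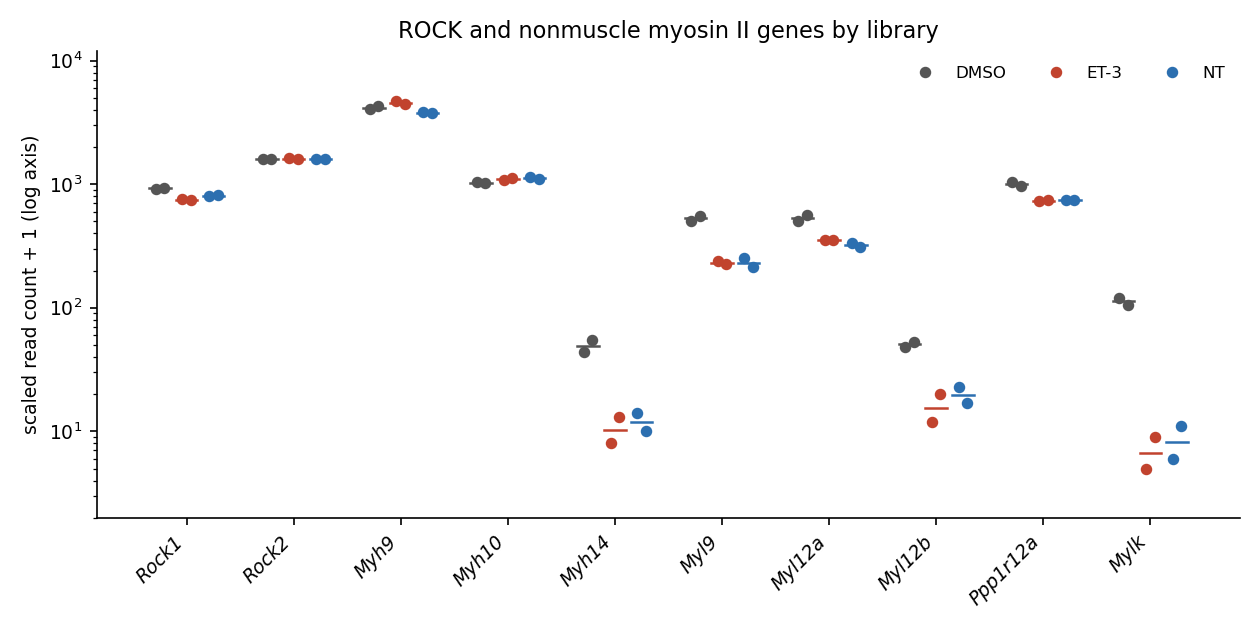
Scaled read count plus 1 of the 10 genes in each library, on a log axis. Each point is 1 library colored by treatment, and each bar is the geometric mean of the 2 libraries of a group. The DMSO points of Mylk (values 120 and 104) lie above all ligand points (4 to 10), while the points of Rock2 from the 3 groups lie together.

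Promoter sequence was examined because several members moved together. RefSeq start sites on GRCm38.p6 gave 250 bases before to 50 bases after the start for 9 of the 10 genes, Rock1 being the other one. Both strands were searched for the CArG box, which serum response factor binds, for CAGCTG, an E-box of the kind that myogenic factors bind, and for GGAATG, which TEAD factors bind. The 4 windows that hold any of these motifs are shown to place them, in lower case with the motif in capitals.
Myl9: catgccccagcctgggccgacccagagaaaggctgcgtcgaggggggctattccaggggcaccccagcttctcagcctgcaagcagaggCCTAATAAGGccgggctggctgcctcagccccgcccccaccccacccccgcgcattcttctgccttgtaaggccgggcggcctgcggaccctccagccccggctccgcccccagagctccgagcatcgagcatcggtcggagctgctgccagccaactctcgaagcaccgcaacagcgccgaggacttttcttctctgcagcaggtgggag
Mylk: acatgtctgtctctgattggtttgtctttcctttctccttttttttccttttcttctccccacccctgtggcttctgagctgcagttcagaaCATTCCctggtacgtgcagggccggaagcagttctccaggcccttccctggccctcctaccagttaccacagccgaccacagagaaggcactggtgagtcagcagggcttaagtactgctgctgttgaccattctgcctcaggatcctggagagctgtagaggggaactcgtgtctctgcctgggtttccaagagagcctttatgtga
Myl12a: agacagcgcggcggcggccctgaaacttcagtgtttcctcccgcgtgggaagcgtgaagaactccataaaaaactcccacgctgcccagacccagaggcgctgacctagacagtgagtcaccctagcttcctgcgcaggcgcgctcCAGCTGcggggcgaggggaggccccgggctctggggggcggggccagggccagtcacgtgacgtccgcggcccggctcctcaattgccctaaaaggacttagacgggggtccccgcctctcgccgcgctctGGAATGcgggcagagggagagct
Myh10: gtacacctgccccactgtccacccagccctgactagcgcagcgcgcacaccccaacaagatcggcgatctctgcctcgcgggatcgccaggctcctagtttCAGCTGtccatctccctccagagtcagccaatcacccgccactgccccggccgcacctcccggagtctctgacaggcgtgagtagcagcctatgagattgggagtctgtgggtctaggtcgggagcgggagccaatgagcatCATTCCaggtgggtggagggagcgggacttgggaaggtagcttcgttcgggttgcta
The Myl9 window (chr2:156775214-156775513, plus strand) holds the CArG box CCTAATAAGG with its first base at -161 from the start, and 1.63% of the 32851 promoters in the RefSeq table hold a CArG box. The Mylk window (chr16:34784700-34784999, plus strand), whose start lies inside the gene's annotated span, holds GGAATG on the opposite strand at -158. The Myl12a window (chr17:71002484-71002783, minus strand) holds CAGCTG at -104 and GGAATG at 28. The Myh10 window (chr11:68691665-68691964, plus strand) holds CAGCTG at -149 and GGAATG on the opposite strand at -7. CAGCTG occurred in 16.3% and GGAATG in 14.66% of all promoters, so that a match to either is common. These matches describe letters in a window and not sites in use, and their part in the changes of RNA was not tested.

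ROCK1 and ROCK2 are the kinases that couple active RhoA to myosin, and the RNA of Rock1 fell while that of Rock2 did not pass. Rock1 (ENSMUSG00000024290) had scaled read counts of 914 and 936 in DMSO, 754 and 742 after ET-3, and 799 and 811 after NT, so that all ligand libraries lay below both DMSO libraries. On the log2 scale, the change came to -0.31 ± 0.04 (SE) for ET-3 and -0.20 ± 0.04 under NT (limma with Benjamini-Hochberg adjustment, adjusted p = 0.000150 and 0.00252). The fall under ET-3 passed in all alternatives tried, whereas the fall under NT was lost with library totals (log2 -0.09, limma adjusted p = 0.0944) and with averaged ligand libraries (limma adjusted p = 0.0819).

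Rock2 (ENSMUSG00000020580, chr12:16894895-16987823, plus strand) had 1597 and 1611 in DMSO, 1617 and 1583 after ET-3, and 1593 and 1582 after NT, and the DMSO and ET-3 ranges overlapped. Relative to DMSO, the log2 difference was -0.00 for ET-3, with a 95% interval from -0.09 to 0.09, and -0.01 under NT, with one from -0.10 to 0.07. The limma adjusted p values were 0.941 and 0.761 (Benjamini-Hochberg), and by the size of the change Rock2 ranked 13838th under ET-3 and 13642nd under NT among the 13921 genes. Under library totals the log2 value was 0.09 for ET-3 (limma adjusted p = 0.059) and 0.10 under NT (limma adjusted p = 0.0353), and with the trend against reads per exonic base removed it was -0.08 under ET-3 (limma adjusted p = 0.0412). Per kilobase of exon, Rock1 made up 30.5% and 30.9% of the ROCK RNA in DMSO, 26.4% and 26.5% after ET-3, and 27.8% and 28.3% after NT. Rock2 therefore had the higher level of the 2 per kilobase in every library, and also the higher scaled read count. Lengths merge all annotated exons of a gene, so shares between genes are not proportions of transcripts. This share is a description, since 2 libraries against 2 cannot reach an exact two-sided permutation p below 0.333.

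The heavy chain genes encode the motor subunit. Myh9 (ENSMUSG00000022443, chr15:77760587-77842175, minus strand), which encodes the heavy chain of nonmuscle myosin IIA, had scaled read counts of 4061 and 4249 in DMSO, 4696 and 4436 after ET-3, and 3833 and 3730 after NT. The groups did not overlap, and the ET-3 libraries were highest and the NT libraries lowest. On the log2 scale, the change came to 0.14 ± 0.05 (SE) for ET-3 and -0.14 ± 0.05 under NT (limma with Benjamini-Hochberg adjustment, adjusted p = 0.0266 and 0.0276). Both calls were near the threshold and were lost without single libraries. With the trend of each library against reads per exonic base removed, the log2 values were 0.015 under ET-3 (limma adjusted p = 0.614) and -0.040 under NT (limma adjusted p = 0.169). The ET-3 call was lost without DMSO replicate 1 or 2, ET-3 replicate 1 or NT replicate 1 (limma adjusted p from 0.0503 to 0.204), and the NT call without either DMSO or either NT replicate (limma adjusted p from 0.0705 to 0.196). With averaged ligand libraries the limma adjusted p values were 0.18 and 0.184, and with library totals the NT value was -0.02 (limma adjusted p = 0.635).

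Myh10 (ENSMUSG00000020900, chr11:68691559-68816632, plus strand), which encodes the heavy chain of myosin IIB, had 1038 and 1012 in DMSO, 1075 and 1115 after ET-3, and 1140 and 1090 after NT. Both ligands lay above DMSO and overlapped each other. The log2 fold change was 0.12 ± 0.05 (SE) under NT and 0.10 ± 0.05 under ET-3, and limma's adjusted p was 0.0396 for NT and 0.0915 for ET-3 (Benjamini-Hochberg). The NT value no longer passed when any 1 library was left out (limma adjusted p from 0.0578 to 0.225) or with averaged ligand libraries (limma adjusted p = 0.154), and with library totals the ET-3 value did (log2 0.18, limma adjusted p = 0.00345).

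Myh14 (ENSMUSG00000030739, chr7:44605803-44670843, minus strand) encodes the heavy chain of myosin IIC, the least abundant of the 3 in these cells. Its scaled read counts were 43 and 54 in DMSO, 7 and 12 after ET-3, and 13 and 9 after NT, and both DMSO libraries lay above all ligand libraries. Relative to DMSO, the log2 difference was -2.27 ± 0.34 (SE) for ET-3 and -2.06 ± 0.34 under NT, or 4.82-fold and 4.16-fold lower on the scale of value plus 1 (limma with Benjamini-Hochberg adjustment, adjusted p = 0.000217 and 0.000448). Counts were low, and counting error alone was 14.6% to 41.3% of the value per library, against 1.45% to 1.64% for Myh9. The fall passed in all alternatives tried, with log2 fold changes from -2.62 to -1.60 under ET-3 and from -2.30 to -1.52 under NT.

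Per kilobase of exon, Myh9 made up 74.9% and 75.9% of heavy chain RNA in DMSO, 77.8% and 76.0% after ET-3, and 72.8% and 73.2% after NT. Myh14 went from 1.41% and 1.715% in DMSO to 0.206% and 0.366% after ET-3 and 0.439% and 0.314% after NT. The make-up of the heavy chain pool was thus dominated by Myh9, followed by Myh10, in every library, and the loss of Myh14 RNA concerned a small part of it.

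**Figure D2:**
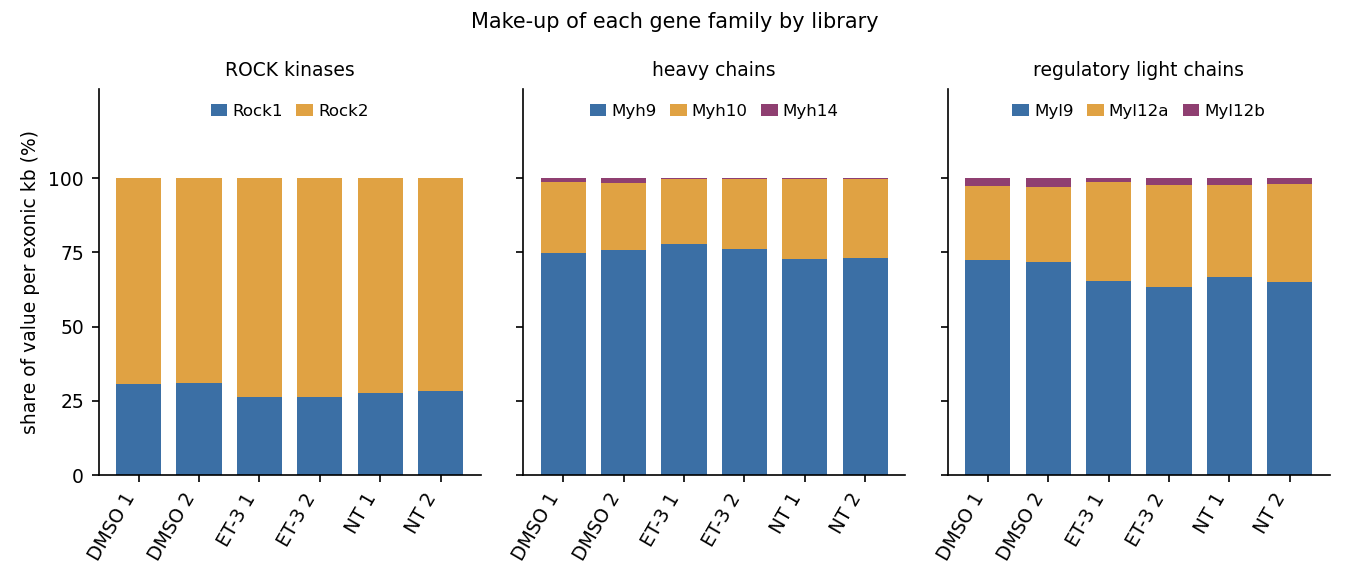
Share of each gene in the scaled read count per kilobase of exon of its family, in percent, for the ROCK kinases, the heavy chains and the regulatory light chains in each of the 6 libraries. Myh9 holds 72.8% to 77.8% of the heavy chain RNA in every library, while the Myl9 share is 71.9% and 72.4% in DMSO and 63.3% to 66.9% after the ligands.

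The regulatory light chain genes fell together. Myl9 (ENSMUSG00000067818, chr2:156775420-156781658, plus strand), whose product is abundant in smooth muscle and other contractile cells, had scaled read counts of 506 and 551 in DMSO, 238 and 223 after ET-3, and 251 and 212 after NT. All ligand libraries lay below both DMSO libraries, and the ligands overlapped each other. The log2 fold change was -1.19 ± 0.09 (SE) under each ligand, or 2.29-fold lower after ET-3 and 2.28-fold lower after NT (limma with Benjamini-Hochberg adjustment, adjusted p = 1.39e-06 and 1.54e-06). Across the alternatives it lay between -1.31 and -1.10 for ET-3 and between -1.31 and -1.07 for NT and passed in each.

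Myl12a (ENSMUSG00000024048, chr17:70993656-71002878, minus strand) and Myl12b (ENSMUSG00000034868, chr17:70973133-70990890, minus strand) are neighboring genes for closely related light chains. Myl12a had 502 and 560 in DMSO, 353 and 351 after ET-3, and 333 and 308 after NT, with all ligand libraries below DMSO. On the log2 scale, the change came to -0.59 ± 0.07 (SE) for ET-3 and -0.73 ± 0.07 under NT, or 1.505-fold and 1.65-fold lower (limma with Benjamini-Hochberg adjustment, adjusted p = 3.58e-05 and 8.63e-06). With averaged ligand libraries these calls were lost (limma adjusted p = 0.0627 and 0.0535).

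Myl12b had 47 and 52 in DMSO, 11 and 19 after ET-3, and 22 and 16 after NT, and no ligand library reached the DMSO range. Relative to DMSO, the log2 difference was -1.70 ± 0.31 (SE) for ET-3 and -1.35 ± 0.31 under NT, or 3.26-fold and 2.55-fold lower (limma with Benjamini-Hochberg adjustment, adjusted p = 0.000781 and 0.00344). Without DMSO replicate 1 or 2 the NT call was lost (limma adjusted p = 0.0559 and 0.0739). Values of this pair are uncertain because the annotation holds a readthrough gene on the same strand, also named Myl12b, that spans both and has no row in the table. It shares 739 exonic bases (26.68%) with Myl12b and 462 (13.75%) with Myl12a. Per the methods of the study, a read that overlapped several genes was left out. Myl12a also shares 207 exonic bases (6.16%) with Myom1 on the opposite strand, and it was not clear whether counting used strand.

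Per kilobase of exon, the summed regulatory light chain level was 601.8 and 659.6 in DMSO, 313.8 and 303.2 after ET-3, and 323.1 and 279.9 after NT. The summed heavy chain level was 419.3 and 432.9 in DMSO, 467.0 and 451.4 after ET-3, and 407.3 and 394.0 after NT. The ratio of light to heavy chain RNA was thus 1.435 and 1.524 in DMSO, 0.6721 and 0.6718 after ET-3, and 0.7932 and 0.7104 after NT. The ratio was lower in all 4 ligand libraries than in both DMSO libraries, which is a description of levels with no test. The light chain sums and shares include Myl12a and Myl12b, whose values are uncertain for the reason just given. Lengths merge all annotated exons of a gene, so the ratio does not give the proportion of transcripts or of subunits. Within the light chains, Myl9 made up 72.4% and 71.9% in DMSO, 65.3% and 63.3% after ET-3, and 66.9% and 65.2% after NT. The Myl12a share was 24.8% and 25.3% in DMSO, 33.5% and 34.5% after ET-3, and 30.7% and 32.8% after NT.

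**Figure D3:**
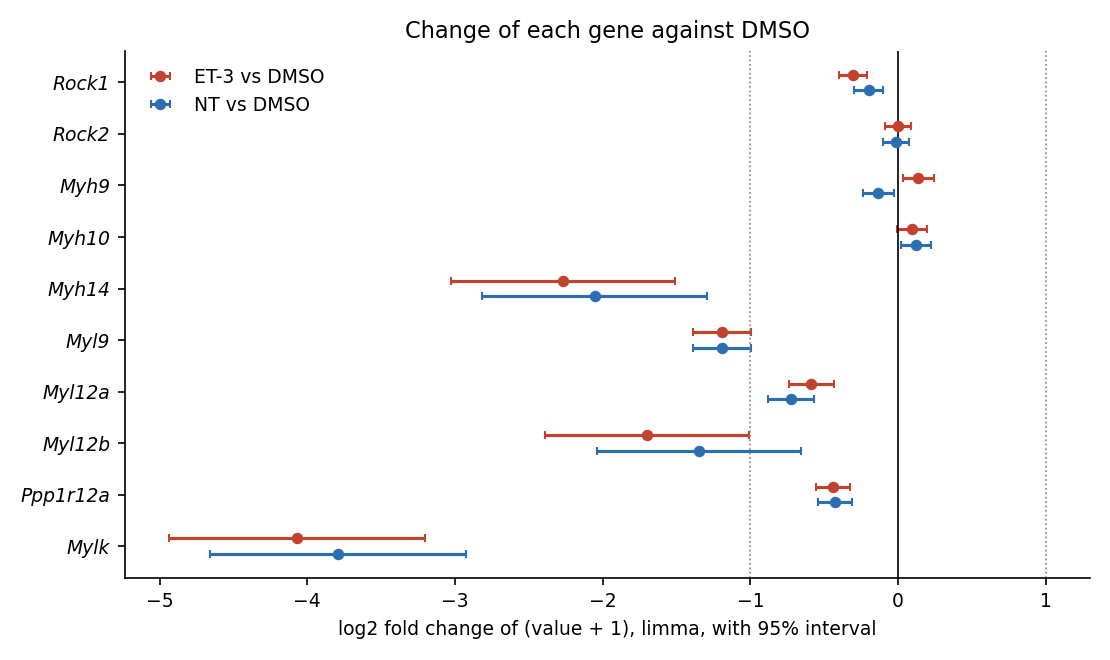
Log2 fold change of each of the 10 genes under ET-3 and under NT against DMSO from limma, with 95% intervals and dotted lines at -1 and 1. The 3 light chain genes, Mylk and Myh14 lie left of 0 under both ligands, and the interval of Rock2 spans 0.

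Light chain phosphorylation is set by kinases against a phosphatase. Mylk (ENSMUSG00000022836, chr16:34745210-35002420, plus strand), the kinase of smooth muscle and nonmuscle cells, had scaled read counts of 120 and 104 in DMSO, 4 and 8 after ET-3, and 5 and 10 after NT. It showed the largest fall among the members, and the groups were far apart. On the log2 scale, the change came to -4.07 ± 0.39 (SE) for ET-3 and -3.79 ± 0.39 under NT, or 16.8-fold and 13.9-fold lower on the scale of value plus 1 (limma with Benjamini-Hochberg adjustment, adjusted p = 8.93e-06 and 1.56e-05). Mylk ranked 414th under ET-3 and 443rd under NT by size of change among the 13921 genes. Counting error reached 54.6% of the value in the lowest library, so the size of the fall is imprecise. The call held in all alternatives, with log2 fold changes from -4.49 to -3.13 under ET-3 and from -4.23 to -3.01 under NT.

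Ppp1r12a (ENSMUSG00000019907, chr10:108162193-108284475, plus strand), which encodes the myosin-binding subunit of the phosphatase and is itself a ROCK substrate, had 1041 and 961 in DMSO, 723 and 749 after ET-3, and 746 and 741 after NT. All ligand libraries lay below both DMSO libraries. Relative to DMSO, the log2 difference was -0.44 ± 0.05 (SE) for ET-3 and -0.43 ± 0.05 under NT, or 1.36-fold and 1.34-fold lower (limma with Benjamini-Hochberg adjustment, adjusted p = 3.44e-05 and 4.68e-05). With averaged ligand libraries neither call was kept (limma adjusted p = 0.0635 and 0.0694). A kinase gene that acts on the light chain and a phosphatase subunit gene that opposes it thus both had less RNA, by unequal amounts.

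The other kinases and phosphatase genes of the same step moved in different directions. Mylk4, a further member of the light chain kinase family, had 1635 and 1688 in DMSO, 42 and 67 after ET-3, and 92 and 66 after NT (log2 fold change -4.94 and -4.40). Mylk2, the skeletal muscle light chain kinase, had 46 and 45 in DMSO, 163 and 148 after ET-3, and 133 and 161 after NT (log2 fold change 1.75 and 1.66). Dapk2, a death-associated protein kinase, had 677 and 718 in DMSO, 172 and 160 after ET-3, and 173 and 164 after NT (log2 fold change -2.06 and -2.04). Mylk4 and Dapk2 fell and Mylk2 rose, each without overlap between DMSO and ligand libraries. Per kilobase of exon, the highest of these kinase levels in DMSO was that of Mylk4, at 212.6 and 219.5, against 192.8 and 204.4 for Dapk2, 15.59 and 15.25 for Mylk2 and 10.65 and 9.234 for Mylk. After ET-3 the Mylk2 level was 55.24 and 50.15, the Dapk2 level 48.97 and 45.56, the Mylk4 level 5.462 and 8.714, and the Mylk level 0.3551 and 0.7103. Among these 4 genes, Mylk2 and Dapk2 therefore stood above Mylk4 and Mylk after ET-3, whereas Mylk4 and Dapk2 led in DMSO. Other listed kinase genes stood higher after ET-3, among them Cdc42bpb (191.6 and 188.2) and Dapk3 (90.44 and 97.16). This list of 12 tested genes also holds the calmodulins. On it, 4 rose and 5 fell under ET-3, and 3 rose and 6 fell under NT (limma, Benjamini-Hochberg), with medians of -0.12 and -0.20. Among all tested genes, 30.6% rose and 33.2% fell under ET-3, and 29.7% rose and 32.5% fell under NT.

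Of the 6 tested phosphatase and inhibitor genes, 2 rose and 3 fell under ET-3 and 1 rose and 3 fell under NT. The all-gene shares just given apply here as well. Ppp1r12b, which encodes a muscle relative of the Ppp1r12a product, had 734 and 764 in DMSO, 239 and 238 after ET-3, and 257 and 290 after NT (log2 fold change -1.65 and -1.45). Ppp1r14c, an inhibitor of protein phosphatase 1, had 401 and 403 in DMSO, 24 and 33 after ET-3, and 37 and 37 after NT (log2 fold change -3.79 and -3.41). Ppp1cb, the catalytic subunit in myosin phosphatase, had 1054 and 1066 in DMSO, 915 and 966 after ET-3, and 854 and 806 after NT (log2 fold change -0.17 and -0.35). All 3 of these fell under both ligands, Ppp1r12b and Ppp1r14c by more than Ppp1cb. Ppp1r12c, another relative of Ppp1r12a, rose under both (log2 0.23 and 0.20, limma adjusted p = 0.00396 and 0.00859). The inhibitor gene Ppp1r14b rose under ET-3 (log2 0.23, limma adjusted p = 0.00653). Its NT value was -0.10 (limma adjusted p = 0.151). The Ppp1r14c value is uncertain because 29.23% of its exonic bases overlap a gene on the other strand and it was not clear whether counting used strand. This also holds for Shroom3 (24.86%), Gna12 (13.35%), Arhgef11 (12.46%) and Rrad (8.94%), and Ppp1cb shares 17.48% with a gene on the same strand. Among the members, such overlap on the other strand was 6.16% for Myl12a and 0.82% for Myh14. For Mylk it was 4.87% and, with another gene, 1.99%.

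**Figure D4:**
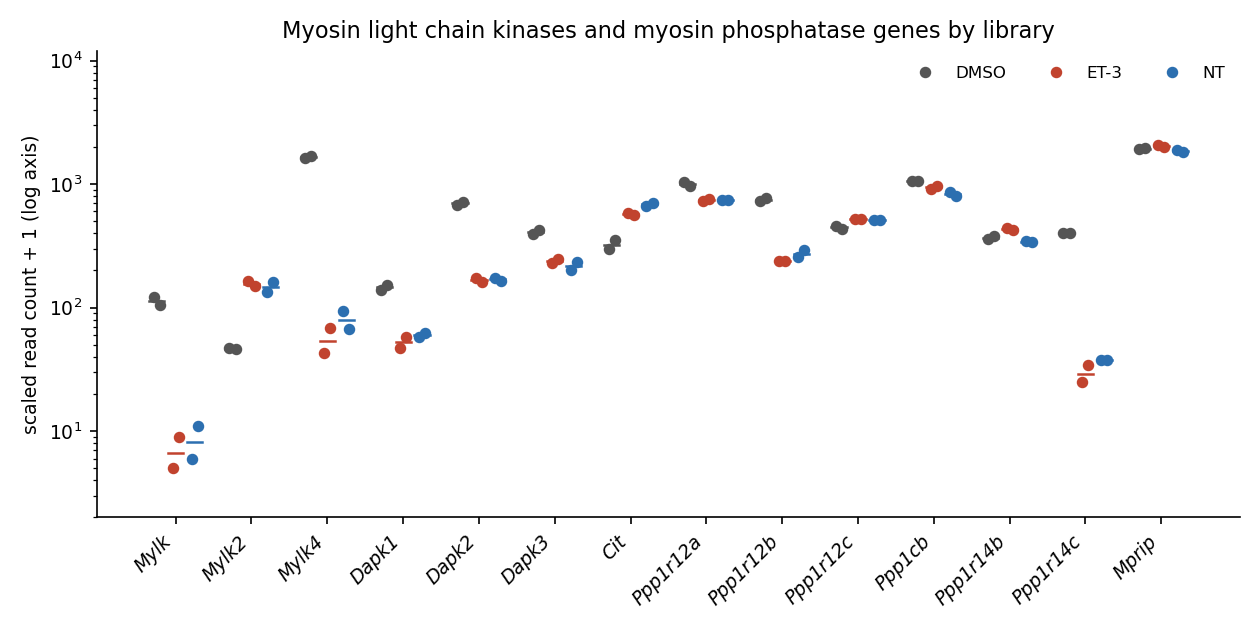
Scaled read count plus 1 of light chain kinase and myosin phosphatase genes in each library, on a log axis. Each point is 1 library and each bar the geometric mean of the 2 libraries of a group. Mylk and Mylk4 are lower after the ligands, Mylk2 is higher, and Ppp1r12a lies at 961 and 1041 in DMSO and 723 to 749 after the ligands.

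The remaining pathway lists place the members in their context. Over all 7 lists together, 59 of 62 genes were tested. Of these, 21 rose and 23 fell under ET-3 and 13 rose and 26 fell under NT, with medians of 0.01 and -0.10. Among all tested genes, 30.6% rose and 33.2% fell under ET-3, and 29.7% rose and 32.5% fell under NT. The counts of each list, here and below, are to be read against these shares. Upstream of ROCK, 5 of 10 genes rose and 0 fell under ET-3 (6 and 0 at an unadjusted p of 0.05 in limma), and 5 rose and 2 fell under NT, with medians of 0.13 under each ligand. Rhoa, the GTPase that activates ROCK, had 629 and 655 in DMSO, 764 and 696 after ET-3, and 604 and 587 after NT. It rose under ET-3 (log2 0.18, limma adjusted p = 0.0156, Benjamini-Hochberg), and its NT value was -0.11 (limma adjusted p = 0.119). Gna12 and Gna13, which encode the alpha subunits of G12 and G13, rose by 0.51 and 0.25 on the log2 scale under ET-3 and by 0.47 and 0.28 under NT. Arhgef11, an exchange factor that joins these G proteins to RhoA, rose by 0.45 and 0.49. None of these 4 named genes passed as lower under either ligand, unlike Mylk and the light chains.

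The tested essential light chain genes, whose products sit beside the regulatory ones on the myosin neck, both fell. Myl6 had 622 and 663 in DMSO, 428 and 438 after ET-3, and 376 and 376 after NT, and Myl6b had 551 and 558, 36 and 52, and 55 and 54. Their log2 fold changes were -0.57 and -3.65 under ET-3 and -0.77 and -3.32 under NT. Myh11, the smooth muscle heavy chain, was too low to test. Among 14 ROCK substrate and LIM kinase branch genes, 4 rose and 8 fell under ET-3 and 2 rose and 7 fell under NT, with medians of -0.32 and -0.25. Ezr, which links actin to the membrane, rose (log2 0.90 and 0.76), while Cfl2, the muscle cofilin that severs actin, fell (-0.79 and -0.88), as did Shroom3, a ROCK-binding scaffold (-1.79 and -1.71). Of 5 inhibitors of ROCK and RhoA signaling, 2 fell and 0 rose under each ligand (2 and 1 at an unadjusted p of 0.05 in limma), with medians of -0.16 and -0.12. Those were Rnd3 (log2 -0.79 and -0.71) and Rrad (-0.85 and -0.86), while Rnd1 had 0.42 and 0.43 and did not pass. Of 10 tropomyosin and crosslinker genes, 6 rose and 3 fell under ET-3 and 2 rose and 4 fell under NT, with medians of 0.16 and -0.06. Tpm2 (log2 -1.68 and -1.74) and Svil (-1.55 and -1.41) fell and Tpm3 (0.47 and 0.24) rose.

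Per kilobase of exon, the order of the member levels differed between DMSO and the ligands. In DMSO it ran from Myl9 (454.8 ± 27.4, SD, n = 2) over Myh9 (321.4 ± 10.3), Myl12a (158.0 ± 12.2), Ppp1r12a (124.8 ± 7.05), Rock2 (115.4 ± 0.712), Myh10 (98.01 ± 1.76) and Rock1 (51.12 ± 0.86) to Myl12b (17.87 ± 1.28), Mylk (9.944 ± 1.00) and Myh14 (6.668 ± 1.07), and the libraries of no neighboring genes overlapped. After ET-3 the order was led by Myh9 (353.2 ± 14.2), followed by Myl9 (198.4 ± 9.13), Rock2 (115.1 ± 1.73), Myl12a (104.8 ± 0.421) and Myh10 (104.7 ± 2.7), of which Myl12a and Myh10 overlapped, and it ended with Myh14 (1.306) and Mylk (0.5327). After NT, Myh9 (292.5 ± 5.63) and Myl9 (199.2 ± 23.7) again led, Myl12a (95.39 ± 5.26) and Ppp1r12a (92.71 ± 0.441) overlapped, and Myh14 (1.512) and Mylk (0.6659) were last. Myl9 and Myh9 therefore exchanged places under either ligand, and so did Mylk and Myh14. The exchange of Mylk and Myh14 rests on low scaled read counts, at 4 to 10 and 7 to 13 after the ligands. The SD (n = 2) of Myh14 was 0.486 after ET-3 and 0.389 after NT, and that of Mylk was 0.251 and 0.314.

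The ligands were also compared directly. Of the 10 members, 0 were higher and 1, Myh9, was lower under NT than under ET-3, beside 2.69% of all tested genes called, with 0.647% higher and 2.05% lower. At an unadjusted p of 0.05 limma gave 1 member higher and 1 lower. With the 2-fold threshold no member was called, beside 0.079% of all tested genes, with 0.0503% higher and 0.0287% lower. For Myh9 the log2 difference was -0.27, with a 95% interval from -0.38 to -0.17 (limma adjusted p = 0.0379, Benjamini-Hochberg). This call did not pass with the ET-3 and NT libraries fitted alone (limma adjusted p = 0.158) or when any 1 of the 6 libraries was left out (limma adjusted p from 0.16 to 0.459). In these settings limma called 0 of all 13921 genes between NT and ET-3, while 1452 to 2883 had an unadjusted p of at most 0.05, so the loss was not particular to Myh9. It also fell to -0.05 once the trend of each library against reads per exonic base was removed (limma adjusted p = 0.384), a setting chosen after seeing the data. Reads per exonic base of Myh9 were 0.3001 in DMSO, 0.309 after ET-3 and 0.358 after NT, and the NT libraries were the deepest, a difference whose part in the result was not tested otherwise. For Rock1 the difference between NT and ET-3 was 0.11 (limma adjusted p = 0.213) and for Myl12a -0.14 (limma adjusted p = 0.304). Among the pathway lists 11 of 59 genes were lower under NT and 0 higher (21 and 9 at an unadjusted p of 0.05 in limma), with Rhoa at -0.29 (limma adjusted p = 0.0389). All 11, Rhoa included, lost their call without the filter, with the replicate block, with the groups fitted alone, with averaged libraries, with any 1 library left out or with the trend removed.

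Genes were then ranked by how near their profile lay to a member, as the Euclidean distance between centered log2 profiles over the 6 libraries. Nearest to Mylk, the member with the largest averaged fall, were Tmem184a (distance 0.428), Ppp1r3b (0.451) and Csf2rb2 (0.505). Nearest to Myh10, the member with the largest averaged rise, were Polr2h (0.0172), Zfp330 (0.0264) and Phf2 (0.0320). These names are a description of likeness in few libraries.

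Markers of cell state and of other cells moved with these results. In bulk samples, fewer cells of a type and less RNA per cell cannot be told apart. Several members are also expressed by smooth muscle cells and pericytes, and of the 11 markers of these cells 8 were tested and all 8 fell under both ligands, 6 of them by at least 2-fold. Their summed scaled read count was 5975 and 6651 in DMSO and between 1674 and 1847 after the ligands. In DMSO the largest values in this sum were those of Notch3 (1397 and 1773), Acta2 and Smtn (990 and 1029). Whether the sum follows the number of such cells was not tested. Of the listed markers, Myh11 and Cnn1 were at 0 to 4 and Kcnj8 at 0 to 2 in every library. Acta2 was at 1216 and 1382 in DMSO and 251 to 281 after the ligands. Rgs5 was at 117 and 150 in DMSO and 2 to 5 after the ligands. Tagln was at 558 and 589 in DMSO and 102 to 130 after the ligands. On the same marker list, Abcc9 (851 and 835 in DMSO, 0 to 4 after the ligands) moved in the same direction as Mylk and Myl9. So did Pdgfrb (227 and 278 in DMSO, 3 to 13 after the ligands). Which cells held the RNA of Abcc9, Pdgfrb, Rgs5 and Tagln was not tested. All 7 markers of differentiating muscle fell as well, with sums of 12516 and 13884 in DMSO and 496 to 574 after the ligands, and Myog, a factor of terminal differentiation, went from 1157 and 1335 to between 28 and 38. All 6 proliferation markers rose, with Mki67 at 1850 and 2002 in DMSO and 2538 to 2688 after the ligands. The MuSC factor Pax7 rose from 857 and 1070 to between 1599 and 1754, but of the 7 tested MuSC and myoblast markers 2 rose and 3 fell under ET-3, and 2 rose and 5 fell under NT. Cdh15, a cadherin of MuSCs, was at 1547 and 1746 in DMSO and 436 to 496 after the ligands, and Des and Itga7 fell under both ligands. The sum of the 8 listed markers was 8991 and 9970 in DMSO, 8696 and 8418 after ET-3, and 7580 and 7218 after NT. Endothelial and fibroadipogenic markers were low but moved as well. The summed endothelial markers were at 24 and 12 in DMSO and 85 to 107 after the ligands, mostly through Tek (2 and 1 in DMSO, 42 to 70 after the ligands), and 2 of 3 tested genes rose under ET-3 and 3 under NT. The summed fibroadipogenic markers were at 204 and 211 in DMSO and 70 to 97 after the ligands. This fall came mostly through Col1a1, at 148 and 146 in DMSO and 2 to 8 after the ligands. Of the 3 tested fibroadipogenic markers, 1 rose and 1 fell under ET-3, and 2 rose and 1 fell under NT. Ly6a rose under both ligands (27 and 18 in DMSO, 37 to 52 after the ligands). The macrophage sum was at 35 and 34 in DMSO and 21 to 45 after the ligands. The part of these shifts in the values of Mylk, Myl9 and the other members was not tested.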

How the data were processed

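RNA from cultured mouse MuSCs was sequenced in 6 libraries, 2 for each of 3 groups, and samples were grouped by their labels. The submitters' processing notes list Trimmomatic 0.38, STAR 2.7.7a, featureCounts 1.6.5, DESeq2 1.30.0 and the build mm10, whereas the methods of the study name Reaper for trimming and other versions of STAR, featureCounts and DESeq2. Which of these made the deposited values is not clear. Per the methods, reads were counted on exons, and reads on several genes were left out. The sources also differ on the library kit, so it is unclear whether counting used strand. The deposited signal is whole numbers, but in 3 libraries the low values leave gaps that raw counts would not: each library holds read counts multiplied by its own factor and rounded, with totals of 4214458 to 4600575. A count model was therefore not used, although the low values allowed the factors to be estimated (grid step 5e-05).

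From these values, log2(value + 1) of the 13921 genes with a mean of at least 5 was fitted over all 6 libraries with limma 3.58.1 (trend, R 4.3.3), and Benjamini-Hochberg adjusted p-values were taken over all of them, with a threshold of 0.05. Fold changes are on the log2(value + 1) scale and understate the change of low genes. Exon lengths (all annotated exons of a gene merged), overlaps and shared 75-base words came from GENCODE on GRCm38, with 18920 of 18943 genes matched. Promoters came from RefSeq. The fit was tested on simulated data. Alternatives were filters, scalings, pseudocounts, a replicate block, fits of 2 groups, averaged ligand libraries, libraries left out in turn and removal of a trend. The members, gene lists and tests were chosen with earlier results of these data known. The text names all 10 members, Rhoa, Gna12 and Gna13, in each pathway list the 3 tested genes with the largest averaged change, 4 markers, and the 3 genes nearest to 2 members. Further markers (Cnn1, Kcnj8, Acta2, Notch3, Smtn, Abcc9, Pdgfrb, Rgs5, Tagln, Tek, Col1a1, Ly6a, Cdh15, Des, Itga7) and list genes (Ppp1r12c, Ppp1r14b, Dapk3, Cdc42bpb) were named after their values were seen. Counting errors cover sampling of reads only.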

Additional observations from a re-analysis of the deposited data

Results flagged for a closer look

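Myh9, the gene of the most abundant nonmuscle myosin II heavy chain, was flagged because its response to the ligands differed: it rose under ET-3 and fell under NT, and the test of the difference between NT and ET-3 gave a log2 value of -0.27 (limma adjusted p = 0.0379, Benjamini-Hochberg). Both ET-3 libraries lay above both NT libraries. The call was lost in most alternatives, with limma adjusted p values up to 0.704.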

How the results depend on the processing

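Of 480 repeats of single-member values, 418 kept direction and side of the threshold, 42 no longer passed, 2 newly passed and 18 turned direction, of which 1, Rock2 under NT with library totals, also newly passed. Mylk, Myh14 and Myl9 passed against DMSO under each of the 16 alternatives for both ligands. The members lower under ET-3 (7) numbered 4 with the 2-fold threshold. The member higher under ET-3 (1) became 2 with library totals, 0 with averaged ligand libraries, the trend removed or the 2-fold threshold, and 0 to 1 with a library left out. The pathway genes higher under ET-3 (21) became 5 with averaged libraries, 1 at 2-fold and 13 to 20 with a library left out, and those lower (23) became 10 at 2-fold. Under NT, the member higher (1) became 2 with library totals, 0 with the replicate block, the 2 groups alone, averaged libraries, the trend removed, the 2-fold threshold or any library left out. The members lower under NT (8) became 4 with averaged libraries or at 2-fold and 6 to 8 with a library left out. The pathway genes higher under NT (13) became 5 with averaged libraries and 2 at 2-fold, and those lower (26) became 16 and 9.

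Between NT and ET-3, the member called lower (1) became 0 without the filter, with the replicate block, the 2 groups alone, averaged libraries, any library left out, the trend removed or the 2-fold threshold. The pathway genes called lower (11) became 5 with a pseudocount of 0.5 and 0 in those same settings, and those higher (0) became 2 with a mean of at least 20. The replicate numbers were only names: the deviations of same-numbered libraries correlated at -0.008, -0.07 and -0.022, and with the block Myh9 had a limma adjusted p of 0.0691.

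These log2 values turned direction. For Rock2 they were 0.085 (library totals) and 0.0045 (upper quartile) under ET-3, with -0.019 to 0.012 when a library was left out, 0.098 under NT (library totals), and 0.013 (library totals), 0.027 (trend removed) and -0.027 to 0.0041 (a library left out) for NT against ET-3. For NT against ET-3 with a library left out, Myh10 ranged from -0.0064 to 0.058, Myh14 from -0.14 to 0.56, Myl9 from -0.12 to 0.12, Myl12b from -0.016 to 0.72, Ppp1r12a from -0.011 to 0.040 and Mylk from -0.16 to 0.71. The causes were not tested. Depth limits Mylk, Myh14 and Myl12b, which had few reads with the ligands.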
